A study of Mus musculus with 6 samples.

Results

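The anaphase-promoting complex (APC/C) and its regulators were followed in fully grown oocytes with and without LSM14B, an RNA-binding protein of oocyte messenger ribonucleoprotein particles. The members were the 10 rows of the deposited expression table whose gene symbol is Anapc10, Anapc13, Cdc26, Anapc4, Anapc5, Cdc27, Cdc20, Fzr1, Fbxo5 or Fbxo43, of 24255 rows in all. They were split by role into 3 small subunits (Anapc10, Anapc13 and Cdc26), 3 large subunits (Anapc4, Anapc5 and Cdc27), 2 activators (Cdc20 and Fzr1) and 2 inhibitors (Fbxo5 and Fbxo43).

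The APC/C is a large ubiquitin ligase that marks cyclin B and securin for destruction, and so lets chromosomes separate and the cell leave M phase. Scaffold and arm subunits carry the catalytic core, small subunits stabilise the arms and help to hold substrates, and one of the activators CDC20 and CDH1 (the product of Fzr1) recruits the substrates. In oocytes CDH1 activity helps to keep the prophase arrest, CDC20 drives the first meiotic division, EMI1 (Fbxo5) restrains the complex around the resumption of meiosis, and EMI2 (Fbxo43) holds the arrest of the mature egg.

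RNA was sequenced from germinal-vesicle (GV) oocytes, the prophase-arrested stage, of wild-type (WT) mice and of homozygous Lsm14b-KO mice, with 3 libraries a genotype and 20 oocytes pooled in each. The knockout allele is a reporter-tagged insertion of the knockout-first type on a C57BL/6J background, present in every tissue and not only in the oocyte. Mice of both genotypes had received 5 IU of PMSG, a gonadotropin that makes follicles grow, and oocytes were taken 46 h later. The sources used here do not say how many mice gave a library, nor their age, so the p-values measure the spread between these samples, which may be partly technical.

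Expression was given as FPKM, fragments per length of transcript and per depth of the library, a scale per length on which levels of different genes can be compared within a library. Depth, estimated from the size of 1 fragment, was 3540000 to 4020000 fragments in WT and 4730000 to 7660000 fragments in Lsm14b-KO libraries. The summed FPKM was 1141324 to 1244182 in WT, and in Lsm14b-KO it was 1029728 for replicate 1, 564671 for replicate 2 and 676656 for replicate 3. Lsm14b itself read 2.78, 3.98 and 1.72 FPKM in WT and 0, 0 and 0.102 FPKM in Lsm14b-KO. All 10 oocyte markers were present at 1 FPKM or more, whereas 3 of 10 cumulus and granulosa markers were, with a summed level of 9.41 to 13.3 FPKM in WT and 5.79 to 9.41 FPKM in Lsm14b-KO and with Amh, Inhba, Foxl2 and Ptx3 at 0 throughout. All 5 red blood cell markers were at 0. The part of other cells in the results below was not tested. Lsm14b-KO replicate 1 stood nearer to WT (r = 0.952 to 0.954 across tested genes) than replicates 2 and 3 did (0.867 to 0.929).

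The 6398 genes that reached 1 FPKM in any library were tested by limma on log2(FPKM + 1), with p-values adjusted over all of them and a threshold of 0.05. All 10 members passed this filter on low values, but Cdc20 passed through 1 WT library alone and Fzr1 through 2 Lsm14b-KO libraries alone. A log2 fold change is Lsm14b-KO minus WT throughout, on the log2(FPKM + 1) scale, which understates the change of low genes, and a pooled sample cannot tell fewer cells that hold an mRNA from less of it per cell. The log2 fold change compares means of log2 values, so it can differ from the ratio of mean FPKM given beside it. Of the tested genes 21.6% passed the threshold, 6.38% higher and 15.2% lower in Lsm14b-KO, and the median log2 fold change was −0.08. Of the members, 1 was higher (Fbxo5) and 2 were lower (Anapc10 and Cdc26), 7 did not pass, and the median was −0.16. The groups did not overlap for 5 of the 10 members, beside 45.0% of all tested genes. Cdc20 was 1 of these 5, and its entry through WT alone favoured that separation.

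A pair of sequence sets is shown for the members on which the results turn. The first is the hexamer CCTCTC, the DNA form of the motif that the study describes for LSM14B, searched on the sense strand of 1 GENCODE vM21 transcript a gene and printed in capitals with 9 bases on either side. The windows of the 3 members that passed the threshold, and of Cdc27, the most abundant large subunit, read as follows.
Anapc10, 3′ untranslated region: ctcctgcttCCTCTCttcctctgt
Cdc26, 5′ untranslated region: gcagcttttCCTCTCctgccattt
Fbxo5, 5′ untranslated region: cgagggcgtCCTCTCatgccgcct
Cdc27, 3′ untranslated region, first: gtgtgtctgCCTCTCtcccaggag
Cdc27, 3′ untranslated region, second: gaaggaaaaCCTCTCctactggtc
The hexamer was present in 8 of the 10 members (80.0%, 0.406 per kb) and in 3414 of 6318 tested genes with a transcript (54.0%, 0.374 per kb). Anapc13 and Cdc20 held none. For Fbxo5 and Anapc4 the hexamer lies before the RefSeq start used for the promoters below, since the GENCODE transcript starts further upstream. Whether it is part of their mRNA in oocytes was not tested, and the count of members depends on the start used. In the GENCODE transcripts the hexamer was thus found in members that were higher, lower and not past the threshold, and nothing is drawn from its presence or absence.

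The second set is the promoters of the same 3 members, 300 bases from 250 before to 50 after a RefSeq transcript start (GRCm38.p6). Capitals mark CCAAT, the box bound by NF-Y, and the letters TTTGAA and TTTAAA, forms of the cell-cycle homology region found in many genes of the cell cycle, each searched on both strands, so that capitals can be the reverse complement of these letters. In the windows shown no match overlapped one of another motif.
Anapc10, the downstream of 2 starts, chr8:79711599-79711898, plus strand: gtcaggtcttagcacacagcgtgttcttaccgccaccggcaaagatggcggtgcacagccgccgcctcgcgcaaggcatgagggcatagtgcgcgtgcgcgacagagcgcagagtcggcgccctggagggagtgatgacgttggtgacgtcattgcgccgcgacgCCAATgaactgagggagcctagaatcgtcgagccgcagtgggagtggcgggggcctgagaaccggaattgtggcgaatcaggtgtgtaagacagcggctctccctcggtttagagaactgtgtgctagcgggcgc
Cdc26, chr4:62408576-62408875, minus strand: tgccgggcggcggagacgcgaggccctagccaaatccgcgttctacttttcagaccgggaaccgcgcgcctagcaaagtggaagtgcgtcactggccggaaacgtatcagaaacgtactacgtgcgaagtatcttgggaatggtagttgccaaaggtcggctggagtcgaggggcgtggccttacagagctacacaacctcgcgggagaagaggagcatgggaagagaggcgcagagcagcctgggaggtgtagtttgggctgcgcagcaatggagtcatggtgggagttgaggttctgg
Fbxo5, chr10:5805416-5805715, minus strand: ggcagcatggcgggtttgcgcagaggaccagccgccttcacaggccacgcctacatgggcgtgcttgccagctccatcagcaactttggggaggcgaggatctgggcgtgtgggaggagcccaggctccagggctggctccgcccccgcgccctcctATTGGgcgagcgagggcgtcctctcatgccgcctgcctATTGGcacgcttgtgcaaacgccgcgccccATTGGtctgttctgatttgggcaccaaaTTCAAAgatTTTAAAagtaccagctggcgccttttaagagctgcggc
The Fbxo5 window held 3 CCAAT boxes and 1 each of TTTGAA and TTTAAA, the Anapc10 window 1 CCAAT box, and the Cdc26 window none of them. The 3 Fbxo5 boxes lie before the RefSeq start but after the start of the GENCODE transcript searched above. The hexamer stretch of Fbxo5 is therefore printed in both sets. Among 32851 windows of the same length, 37.4% held CCAAT, 17.9% TTTGAA and 13.2% TTTAAA. Windows were found for 9 of the 10 members, Fbxo43 being the exception. Of the members not past the threshold, Cdc20 held 2 CCAAT boxes and 1 TTTGAA, Cdc27 and Anapc5 held 2 CCAAT boxes each, and Fzr1 held 1. The windows of Anapc13 and Anapc4 held none of these letters, and nothing is drawn from the matches. A match is a run of letters and not a shown binding site.

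The small subunits were the abundant members in WT oocytes, and 2 of the 3 were several-fold lower without LSM14B. Anapc10 (chromosome 8, 79711820 to 79779059, GRCm38) encodes a subunit of 185 residues that holds substrates together with the activator. In the order of the replicate numbers, which is kept below, it read 89.7, 79.5 and 64.0 FPKM in WT and 32.2, 4.39 and 6.31 FPKM in Lsm14b-KO. Every Lsm14b-KO library was below every WT library, and replicate 1 kept the most. The WT mean of 77.7 ± 12.9 FPKM (SD, n = 3) stood against 14.3 ± 15.5 FPKM (SD, n = 3) without LSM14B, 5.43 times lower, with a log2 fold change of −2.83 (SE 0.63, limma adjusted p = 0.0201). About 654 to 894 fragments in WT and 84.1 to 427 in Lsm14b-KO libraries lay behind these values, so that counting error was small beside the spread between libraries. Leaving out any 1 WT library, or Lsm14b-KO replicate 3, kept the direction but not the call (adjusted p = 0.0930, 0.0830 and 0.0739 without WT replicates 1, 2 and 3, and 0.0941 without Lsm14b-KO replicate 3).

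Cdc26 (chromosome 4, 62383654 to 62408642), a subunit of 85 residues that stabilises the arm subunit CDC16, moved alike. Its level was 33.5, 36.6 and 28.0 FPKM in WT and 10.3, 2.98 and 3.47 FPKM in Lsm14b-KO. The groups were again separate, with replicate 1 nearest to WT. WT libraries averaged 32.7 ± 4.35 FPKM (SD, n = 3) and Lsm14b-KO libraries 5.59 ± 4.11 FPKM (SD, n = 3), 5.85 times lower, with a log2 fold change of −2.52 (SE 0.41, limma adjusted p = 0.00661). Cdc26 was the 1 member that passed under all 15 alternative settings tried (log2 fold change −2.99 to −1.79). The call rested on about 83.8 to 121 fragments a library in WT and 16.7 to 40.0 in Lsm14b-KO.

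Anapc13 (chromosome 9, 102626296 to 102634425), a subunit of 74 residues that stabilises the same arm, did not share the size of this difference. It read 36.7, 35.7 and 31.0 FPKM in WT and 23.8, 14.9 and 26.7 FPKM in Lsm14b-KO. The groups did not overlap, but the log2 fold change of −0.68 (95% interval −1.36 to 0.01) did not pass (limma adjusted p = 0.132), and after a correction for transcript length and GC content it was 0.13. Its exons overlap those of Cep63 on the other strand, and reads of the pair cannot be told apart where strand was not kept. Cep63 itself read 0.129 to 0.625 FPKM in WT and 0.581, 0 and 0 FPKM in Lsm14b-KO. Its part in the Anapc13 values was not tested. Within each WT library Cdc26 and Anapc13 were nearly level, with a ratio of 0.906 to 1.03, whereas the ratio was 0.434, 0.200 and 0.130 in Lsm14b-KO replicates 1, 2 and 3. A ratio taken within a library is free of that library's scaling, and here it was below the WT range in all 3 Lsm14b-KO libraries. The ratio of Anapc10 to Cdc26, the 2 that fell, was 2.17 to 2.68 in WT and 1.47 to 3.12 in Lsm14b-KO, and its groups overlapped.

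**Figure D1:**
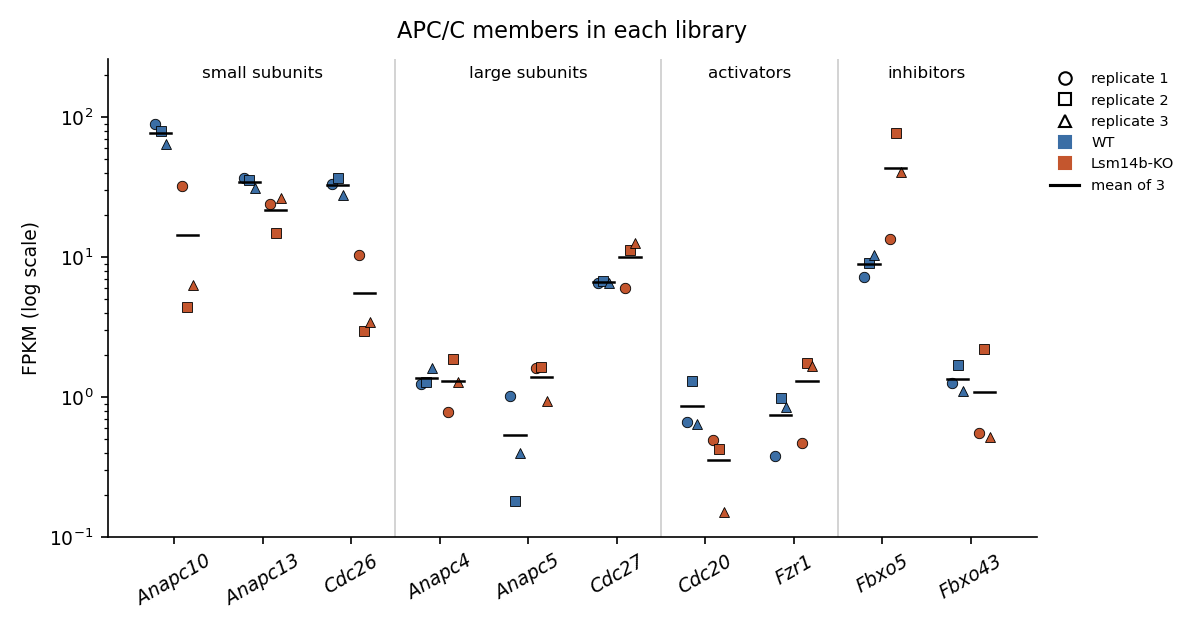
FPKM of each member (log axis) in the 6 libraries, with blue for WT, orange for Lsm14b-KO, a marker shape for each replicate and a bar for the mean of 3. Anapc10 and Cdc26 are lower and Fbxo5 is higher in every Lsm14b-KO library than in every WT library, and replicate 1 (circle) is the Lsm14b-KO library nearest to WT for all 3.

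None of the 3 large subunits passed the threshold, and 2 of the 3 were fitted higher in Lsm14b-KO. Cdc27 (chromosome 11, 104502745 to 104550620), an arm subunit of 825 residues to which the activators bind, was by far the most abundant of them. It read 6.51, 6.73 and 6.56 FPKM in WT and 6.03, 11.2 and 12.7 FPKM in Lsm14b-KO. Replicate 1 lay just below the WT libraries and replicates 2 and 3 well above them, so the groups overlapped on the deposited scale. Its log2 fold change was 0.47 (95% interval −0.20 to 1.15, limma adjusted p = 0.252), and 0.77 without Lsm14b-KO replicate 1, where it passed (adjusted p = 0.0139). After scaling to the same FPKM sum it was 1.10 (limma adjusted p = 0.0907), which was 0.70 above the median of all tested genes. Behind these values lay 125 to 147 fragments in WT and 155 to 526 in Lsm14b-KO libraries, the deepest cover among the large subunits.

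Anapc4 and Anapc5, scaffold subunits of 807 and 740 residues, were near or below 1 FPKM. Anapc4 (chromosome 5, 52834012 to 52867797) read 1.25, 1.27 and 1.61 FPKM in WT and 0.781, 1.87 and 1.29 FPKM in Lsm14b-KO, with a log2 fold change of −0.06 (95% interval −0.59 to 0.46, limma adjusted p = 0.847). Its sign changed after all libraries were brought to an equal FPKM sum (0.38, where the median of all tested genes was 0.40), and again without WT replicate 3 (0.01) or Lsm14b-KO replicate 1 (0.11), so no direction is given. Anapc5 (chromosome 5, 122787459 to 122821339) read 1.02, 0.181 and 0.400 FPKM in WT and 1.61, 1.65 and 0.939 FPKM in Lsm14b-KO. Lsm14b-KO replicate 3 lay below WT replicate 1, the log2 fold change was 0.67 (SE 0.26) and the limma adjusted p was 0.0984, while scaling to the same FPKM sum gave 1.03 with an adjusted p of 0.0457. That scaling put the median of all genes at 0.40, and Anapc5 went from 0.74 to 0.63 above the all-gene median. As few as 2.0 fragments in WT replicate 2 and 10.0 in WT replicate 1 lay behind the Anapc5 values, and its mRNA has 16 near copies, all at most 94.4% identical, among which the reads could be split.

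Small and large subunits therefore differed in their median log2 fold change, at −2.52 and 0.47, a gap of −2.99. The gap ran from −3.59 to −2.21 over the 14 alternatives that gave a value, and −2.21 was the value after the length and GC correction. The gap rests on Anapc10 and Cdc26, since Anapc13 was near the median of the tested genes after that correction (0.02 above it). In each library the median log2 level of the small subunits exceeded that of the large ones by 4.07, 4.05 and 3.61 in WT and by 3.25, 0.91 and 1.67 in Lsm14b-KO. The narrowing was thus present in all 3 Lsm14b-KO libraries and smallest in replicate 1. For Anapc10 over Cdc27 the ratio was 13.8, 11.8 and 9.76 in WT and 5.35, 0.391 and 0.498 in Lsm14b-KO, so that in replicates 2 and 3 the order of these subunits was turned. For Cdc26 over Cdc27 it was 4.27 to 5.44 in WT and 1.71, 0.265 and 0.274 in Lsm14b-KO, again turned in replicates 2 and 3. Anapc13 stayed above Cdc27 in every library, by 4.72 to 5.64 times in WT and 1.33 to 3.95 times in Lsm14b-KO. These ratios and level differences were not corrected for transcript length. Cdc26 and Anapc13 were in the shortest of 5 groups of tested genes by transcript length, with a median log2 fold change of −0.62. Cdc27 was in the longest group, with a median of 0.30.

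**Figure D2:**
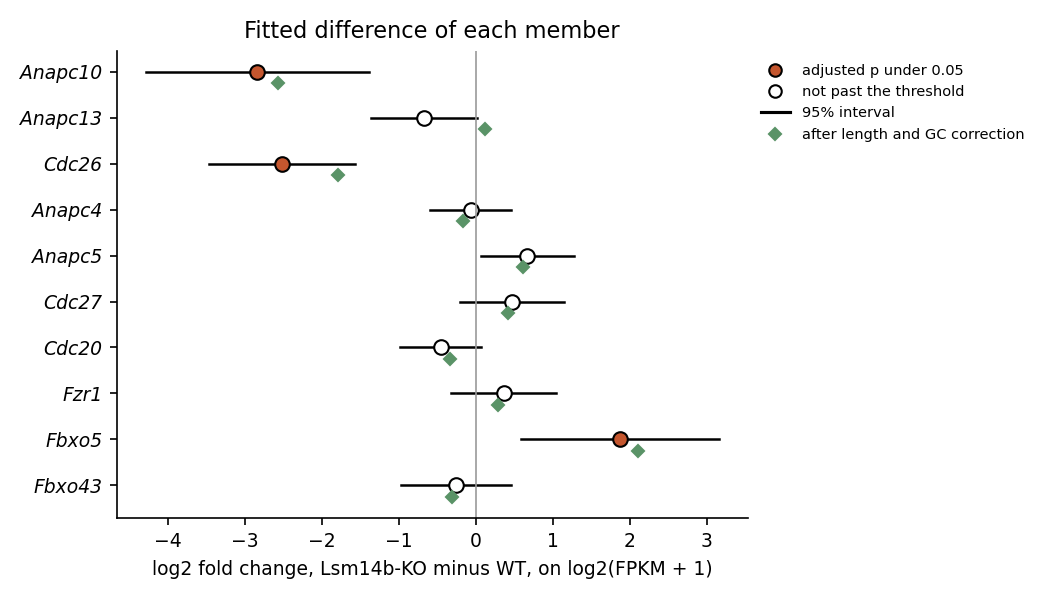
Log2 fold change (Lsm14b-KO minus WT, on log2(FPKM + 1)) of each member as a circle with its 95% interval, filled where the limma adjusted p was under 0.05, and the value after the length and GC correction as a diamond. Anapc10 and Cdc26 lie left of −1.5 and Fbxo5 right of 1.5 on both measures, while the diamond of Anapc13 crosses to 0.13.

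The activators were at the low end of the scale. Cdc20 (chromosome 4, 118432901 to 118437352) read 0.664, 1.30 and 0.641 FPKM in WT and 0.497, 0.426 and 0.152 FPKM in Lsm14b-KO, and its groups did not overlap. The log2 fold change was −0.45 (95% interval −0.98 to 0.07, limma adjusted p = 0.173), on 4.2 to 9.4 fragments in WT and 2.1 to 5.2 in Lsm14b-KO libraries. Exons of Cdc20 overlap those of Elovl1 on the other strand, and the table gives both 1 locus, so the reads may be shared where strand was not kept. Elovl1, looked up after its values were seen, read 13.4 to 15.9 FPKM in WT and 12.6 to 24.1 FPKM in Lsm14b-KO.

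Fzr1 (chromosome 10, 81366222 to 81378516), which encodes CDH1, read 0.379, 0.994 and 0.856 FPKM in WT and 0.474, 1.75 and 1.68 FPKM in Lsm14b-KO. Replicate 1 of Lsm14b-KO lay inside the WT range and the other two above it. The log2 fold change was 0.36 (SE 0.30, limma adjusted p = 0.370), on 4.1 to 12.2 fragments in WT and 6.9 to 39.4 in Lsm14b-KO libraries. Neither activator passed, and the intervals of both allow changes in either direction. Exons of Fzr1 overlap those of Mfsd12 on the other strand, so the same doubt about strand holds for it.

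Of the inhibitors, Fbxo5 rose and Fbxo43 did not pass. Fbxo5 (chromosome 10, 5799160 to 5805600) encodes EMI1, which binds the APC/C as a false substrate and blocks it. Its level was 7.21, 9.16 and 10.5 FPKM in WT and 13.5, 76.5 and 40.6 FPKM in Lsm14b-KO. All 3 Lsm14b-KO libraries were above all 3 WT libraries, replicate 1 by little and replicate 2 by most. WT libraries averaged 8.94 ± 1.63 FPKM (SD, n = 3) and Lsm14b-KO libraries 43.5 ± 31.6 FPKM (SD, n = 3), 4.87 times higher, with a log2 fold change of 1.87 (SE 0.56, limma adjusted p = 0.0475). On the deposited scale its rank moved from above 69.2% of tested genes in WT to above 86.4% in Lsm14b-KO. The call lay close to the threshold: it was lost with a pseudocount of 0.01 (adjusted p = 0.0583), with no filter (0.112), and when any library but Lsm14b-KO replicate 1 was left out (0.0955 to 0.165), although the log2 fold change stayed between 1.32 and 2.53. Near copies of its mRNA, at most 94.0% identical, include a stretch of the Glcci1 transcript (91.2% over 1759 nt), and Glcci1, looked up after its values were seen, read 1.09 to 1.67 FPKM in WT and 1.08 to 3.61 FPKM in Lsm14b-KO.

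Fbxo43 (chromosome 15, 36150060 to 36164884), which encodes EMI2, read 1.27, 1.70 and 1.10 FPKM in WT and 0.553, 2.195 and 0.523 FPKM in Lsm14b-KO. The Lsm14b-KO libraries lay on both sides of WT. The log2 fold change was −0.26 (95% interval −0.98 to 0.46, limma adjusted p = 0.550), and 0.15 after scaling to the same FPKM sum, where the median of all tested genes was 0.40. Fbxo5 over Fbxo43 was 5.39 to 9.47 in WT and 24.4, 34.9 and 77.6 in Lsm14b-KO. The ratio was thus above the WT range in every Lsm14b-KO library, replicate 1 included, but it was not tested and rested on 10.6, 60.6 and 16.2 Fbxo43 fragments there and 16.2 to 27.6 in WT.

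Seen as shares of the summed FPKM of the 10 members, the make-up of the group differed between the genotypes. The sum was 178, 173 and 145 FPKM in WT and 89.8, 118 and 94.3 FPKM in Lsm14b-KO. This sum was not set against the FPKM total of each library, which was itself lower in Lsm14b-KO. No fall of the members as a group is therefore read from the sum. The small subunits held 89.7, 87.7 and 85.0% of the sum of the members in WT and 73.9, 18.9 and 38.6% in Lsm14b-KO. The inhibitors, with Fbxo5 making up 84.3 to 90.4% of their sum in WT and 96.1 to 98.7% in Lsm14b-KO, held 4.8, 6.3 and 8.0% in WT and 15.7, 66.8 and 43.6% in Lsm14b-KO. The share of the large subunits went from 4.7 to 5.9% in WT to 9.4 to 15.8% in Lsm14b-KO, and that of the activators stayed at or under 1.9% in all 6 libraries. For Fbxo5 over Anapc10 the ratio was 0.0805, 0.115 and 0.163 in WT and 0.419, 17.4 and 6.44 in Lsm14b-KO, a pair chosen for its contrast and given as a description.

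**Figure D3:**
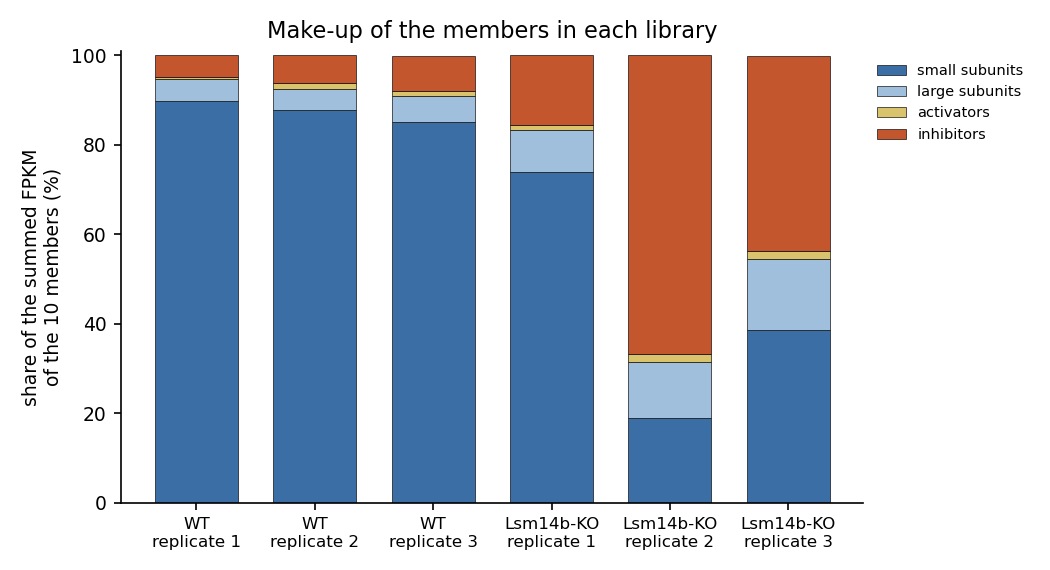
Share (%) of the summed FPKM of the 10 members held by the small subunits, large subunits, activators and inhibitors in each of the 6 libraries, as stacked bars. The small subunits hold 85.0 to 89.7% in WT and 18.9 to 73.9% in Lsm14b-KO, and the inhibitors 4.8 to 8.0% and 15.7 to 66.8%.

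In order of their WT means the members ran Anapc10, Anapc13, Cdc26, Fbxo5, Cdc27, Anapc4, Fbxo43, Cdc20, Fzr1 and Anapc5. The ranges of Anapc13 and Cdc26 overlapped, as did each neighbouring pair from Anapc4 down to Anapc5, and the other neighbours were apart. In Lsm14b-KO the order was Fbxo5, Anapc13, Anapc10, Cdc27, Cdc26, Anapc5, Anapc4, Fzr1, Fbxo43 and Cdc20, and neighbours were apart only between Cdc26 and Anapc5 and between Fbxo43 and Cdc20. This order of means was not that of every library: in Lsm14b-KO replicate 1 Anapc10 (32.2 FPKM) still led, and Anapc13 (23.8 FPKM) also stood above Fbxo5 (13.5 FPKM).

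The other subunits showed the same order of levels by size. Together with the members, 14 subunits were listed, of which 6 had under 200 residues and 8 had more. The short ones had WT means of 32.7 to 204 FPKM and the long ones 0.112 to 6.60 FPKM, so that the ranges did not meet. Over the 14 subunits the rank correlation of protein length with the WT level was −0.69, and with the Lsm14b-KO level −0.68 (Spearman, a description, since all points share the same libraries), while transcript length and WT level gave −0.35 over the 14 and −0.30 over all tested genes. On the deposited scale all 6 short subunits were fitted lower in Lsm14b-KO (median log2 fold change −0.87, Anapc13 turning to higher after the length and GC correction), 3 of the 6 passed as lower, beside 15.2% of all tested genes, and none of the 4 long subunits tested passed (median 0.35). After scaling to the same FPKM sum Anapc13 was at −0.007 and Anapc16 at −0.36, where the median of all tested genes was 0.40. That all 6 were lower is thus stated for the deposited scale alone. The contrast by size was not tested, and Anapc16, 1 of the 3 that passed, lost its call under other scalings. Near copies of high identity were found for Anapc10 (97.3% over 553 nt) and Cdc26 (98.8% over 255 nt), both pseudogenes, so part of their reads could have been counted elsewhere in any library.

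Among those short subunits Anapc16, which joins the complex at its arm, read 91.6, 86.9 and 86.5 FPKM in WT and 45.0, 38.5 and 43.9 FPKM in Lsm14b-KO. The groups were well apart and replicate 1 was close to the other two here, with a log2 fold change of −1.04 (SE 0.26, limma adjusted p = 0.0277), but the call was lost after scaling to the same FPKM sum (−0.36, adjusted p = 0.293) and after quantile normalisation (−0.47, adjusted p = 0.184). The deposited data give Anapc16 and Ascc1 the same locus, although no exon of the Anapc16 transcript used here overlaps another gene. Whether reads were shared was not tested. Anapc11, the catalytic RING subunit, read 36.5, 35.1 and 37.5 FPKM in WT and 31.4, 18.8 and 28.8 FPKM in Lsm14b-KO (log2 fold change −0.48, limma adjusted p = 0.236). Anapc15, which takes part in the release of the checkpoint complex, read 189 to 217 FPKM in WT and 229, 70.5 and 122 FPKM in Lsm14b-KO (−0.69, adjusted p = 0.259), with replicate 1 above the WT range. Of the long ones Anapc7, an arm subunit, gave 0.22 (adjusted p = 0.523). Anapc1, the largest scaffold, read 0.152 to 0.173 FPKM in WT and 0.465 to 0.561 FPKM in Lsm14b-KO, and like Anapc2, Cdc16 and Cdc23 it stayed under 1 FPKM in every library and was not tested.

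**Figure D4:**
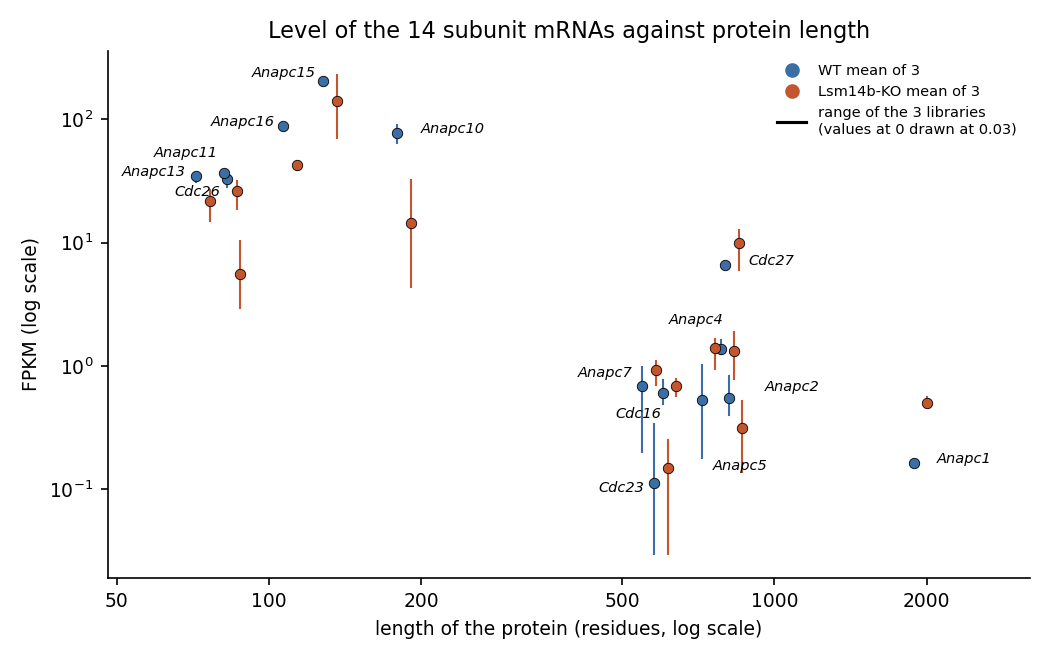
Mean FPKM (log axis) of 14 APC/C subunit mRNAs against the length of the protein in residues (log axis), with WT in blue and Lsm14b-KO in orange set slightly apart and lines for the range of the 3 libraries. The 6 subunits under 200 residues lie at 32.7 FPKM or more in WT and the other 8 at 6.60 FPKM or less.

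The rest of the pathway was read from a list of 30 genes, the 8 further subunits included, of which 24 could be tested. Of these 24, 1 passed as higher (Ube2s) and 3 as lower (Anapc16, Gmnn and Mad2l1bp), and 20 did not pass, beside 21.6% of all tested genes past the threshold. The groups did not overlap for 10 of the 24, beside 45.0% of all tested genes. The median log2 fold change was 0.20, but 5 of the 24 (Anapc7, Ube2s, Trip13, Btrc and Camk2g) passed the filter through Lsm14b-KO libraries alone and all 5 were fitted higher, so the filter itself fixed part of that median. The filter also favoured separate groups for Ube2s, Trip13, Btrc and Camk2g, which are among the 10. Ube2c, which starts ubiquitin chains on APC/C substrates, read 109 to 134 FPKM in WT and 124 to 154 FPKM in Lsm14b-KO (log2 fold change 0.14, limma adjusted p = 0.707). Ube2s, which extends those chains, read 0.706, 0.305 and 0.674 FPKM in WT and 1.31, 2.53 and 1.91 FPKM in Lsm14b-KO (0.89, SE 0.23, adjusted p = 0.0323). It was among those 5, so its direction was set in part by the filter, and it rested on 1.5 to 3.1 fragments a WT library. Ube2d1, a further conjugating enzyme, gave 0.14 (adjusted p = 0.663).

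Among the substrates, geminin (Gmnn), an inhibitor of replication licensing, was the one that passed on the deposited scale. It read 359, 360 and 330 FPKM in WT and 104, 23.4 and 44.1 FPKM in Lsm14b-KO, 6.13 times lower in the mean (log2 fold change −2.85, SE 0.50, limma adjusted p = 0.00920). The 3 Lsm14b-KO libraries were all far below WT, and again replicate 1 was nearest. Cyclin B1 (Ccnb1), the main partner of CDK1, read 314, 343 and 465 FPKM in WT and 227, 295 and 234 FPKM in Lsm14b-KO. Its groups were separate on the deposited scale but did not pass (−0.56, adjusted p = 0.200). Cyclin B2 (Ccnb2) gave 0.86 (adjusted p = 0.138), cyclin A2 (Ccna2) 0.18 (0.550), and securin (Pttg1), at 878 to 1026 FPKM in WT and 627 to 1429 FPKM in Lsm14b-KO, 0.03 (0.953). Securin did pass after scaling to the same FPKM sum, as higher in Lsm14b-KO, and after quantile normalisation. Its call thus depended on the scaling. So did that of the checkpoint gene Bub3 (0.71, limma adjusted p = 0.0583 on the deposited scale), which passed under both of these scalings. Trip13 passed under the first of them. Mad2l1bp, which encodes the protein p31comet that helps to disassemble the checkpoint complex, read 19.7, 16.7 and 18.0 FPKM in WT and 9.77, 4.92 and 7.58 FPKM in Lsm14b-KO (−1.22, SE 0.28, adjusted p = 0.0227), and did not pass after scaling to the same FPKM sum (−0.60, adjusted p = 0.0951) or quantile normalisation (−0.93, adjusted p = 0.0521). The calls of Anapc16, Ube2s, Gmnn and Mad2l1bp were each lost when any 1 WT library or Lsm14b-KO replicate 3 was left out (adjusted p = 0.0519 to 0.118), and that of Ube2s also without Lsm14b-KO replicate 2 (0.0824), with their directions kept.

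Transcript length moved with the fold changes of all genes, and the members were set against it. In 5 equal groups of tested genes by transcript length, from short to long, the median log2 fold change was −0.62, −0.32, 0.01, 0.20 and 0.30, with 22.9% of the shortest group and 9.6% of the longest past the threshold as lower. Anapc13 (589 nt) and Cdc26 (819 nt) were in the shortest group, and Anapc13 lay near its median while Cdc26 lay far below it. Anapc10 encodes a small protein, but the transcript used for it is long (2801 nt, of which 2158 nt are 3′ untranslated). It was thereby in the group next to the longest, whose median was above 0. Lengths were those of 1 transcript a gene, the longest protein-coding one with a RefSeq entry where there was one. Anapc10 has 3 annotated transcripts, and which of them the oocytes held was not tested. Fbxo5 (1940 nt) was in the middle group. After the length and GC correction Anapc10 was at −2.57, Cdc26 at −1.79 and Fbxo5 at 2.11, and all 3 passed. The part of length in the members' values beyond this correction was not tested.

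**Figure D5:**
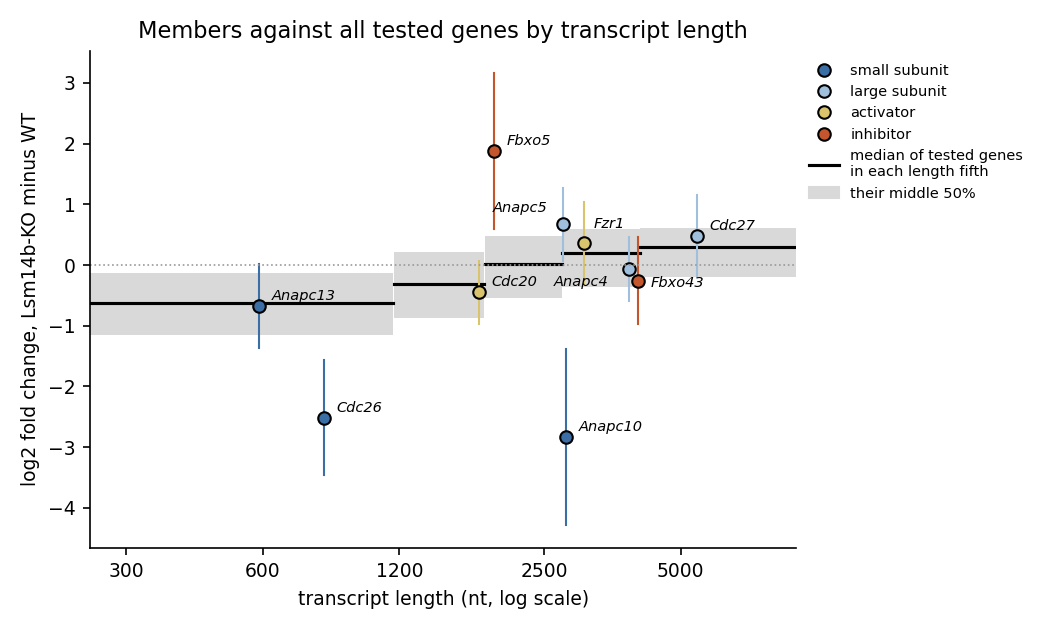
Log2 fold change (Lsm14b-KO minus WT) of the 10 members, with 95% intervals, against transcript length in nt (log axis, cropped at both ends), beside the median (black line) and middle 50% (grey) of all tested genes in 5 groups of equal size by length. Anapc13 lies near the median of its group, whereas Cdc26 (−2.52), Anapc10 (−2.83) and Fbxo5 (1.87) lie far outside the grey band and Anapc5 (0.67) just above it.

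Lsm14b-KO replicate 1 differed least from WT for 6 of the 10 members (60.0%), beside 57.0% of all tested genes and 71.4% of those past the threshold. For the 3 members that passed, its distance from the WT mean on the log2 scale was −1.23 for Anapc10, −1.57 for Cdc26 and 0.56 for Fbxo5, while in replicate 2 the values were −3.86, −3.08 and 2.98 and in replicate 3 −3.42, −2.91 and 2.08. Each of the 3 had the same sign in every Lsm14b-KO library. For Cdc27 the distances were −0.11, 0.69 and 0.85, and for Fzr1 −0.22, 0.68 and 0.64, so on the deposited scale their sign in replicate 1 was opposite to that in the other Lsm14b-KO libraries. What set replicate 1 apart was not tested.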

How the data were processed

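Per the labels, RNA of 20 GV oocytes a library was amplified by Smart-seq2 and sequenced in pairs. The labels name different library kits in different places, and strandedness is not given in the sources used here. The authors aligned the reads to mm10 with TopHat2 2.0.13 and computed FPKM with Cufflinks 2.2.1, and the submitters' processing notes also name Cuffdiff and Cuffnorm. The gene annotation is not given in the sources used here. The deposited table holds FPKM for each of the 6 libraries, and also the authors' own log2 fold changes, p-values and q-values, which were not used.

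Deposited FPKM values were taken as log2(FPKM + 1). Genes reaching 1 FPKM in at least 1 library were tested with limma 3.58.1 (R 4.3.3, eBayes with an intensity trend, genotype as the only term), two-sided, with Benjamini-Hochberg adjustment over all 6398 tested genes. The fit was tested on simulated data with independent noise of the same spread in both genotypes. The Lsm14b-KO libraries were less alike than the WT libraries, so the simulation checks how the fit runs and not the calls made here. An exact permutation test of 3 against 3 libraries cannot go below p = 0.10, and every member whose groups did not overlap had that value. Groups and replicates came from the sample titles. The members and all lists were chosen with earlier results of these data known. Named by plan were all members, Lsm14b, and from the pathway list each gene past the threshold and each subunit, conjugating enzyme, cyclin and securin. Outside that plan, genes that share exons, a locus or near-identical sequence with a listed gene were named. So were Bub3, Trip13, Btrc and Camk2g, where the filter or the scaling bore on the counts.

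Coordinates, lengths and sequences came from GENCODE vM21 (GRCm38, the assembly of mm10) and RefSeq, and 6318 tested genes (98.7%) had a length and GC content. Per library, a loess fit on both was subtracted for the corrected values. Fragments were estimated from the FPKM step of 1 fragment: 72.0 to 79.5% of low values lay within 0.15 of a whole fragment. They rest on GENCODE lengths and cover counting error only. Near copies were sought with blastn 2.17.0 (at least 90% identity over at least 200 nt). The alternatives covered scaling, pseudocount, filter, trend, length and GC, replicate block and leaving out each library.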

Additional observations from a re-analysis of the deposited data

How the results depend on the processing

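The number of genes past the threshold was 1383, 720 with no filter, and 315 to 2898 when 1 library was left out (315 without Lsm14b-KO replicate 3, 2898 without replicate 1, and 396 to 462 without a WT library). Of the 10 members 3 passed, 1 with no filter (Cdc26) and 1 to 4 with 1 library left out. Of the other pathway genes 4 passed, 2 with no filter, and 0 to 12 with 1 library left out. Fewer libraries or more genes tested go into these fits by construction. Anapc10 kept −2.83 with no filter (adjusted p = 0.0588) and ran from −3.64 to −2.32 with 1 library left out. Fbxo5 was 1.97 with a pseudocount of 0.01 and 1.87 with no filter, neither of them past the threshold, and 1.32 to 2.53 with 1 library left out. Anapc13 was 0.13 after the length and GC correction. Anapc4 was 0.38 and Fbxo43 0.15 after scaling to the same FPKM sum, and with 1 library left out Anapc4 ran from −0.23 to 0.11. Anapc5 became 1.03 and Cdc27 1.10 after that scaling, and Cdc27 ran from 0.29 to 0.77 with 1 library left out. The cause of these changes was not tested. The small-minus-large gap kept its sign in all 14 alternatives with a value. The filter on the mean dropped Anapc5 and Cdc20, so it gave no value for them or for the gap.

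Scaling to the same FPKM sum moved the median of all tested genes by 0.48, quantile normalisation by 0.14 and the length and GC correction by 0.18, and the share of calls that were higher went from 29.5% to 63.2%, 42.4% and 44.9%. Relative to those medians Anapc10 stayed at −2.76 to −2.54, Cdc26 at −2.44 to −1.89 and Fbxo5 at 1.95 to 2.27.

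Same-numbered libraries did not deviate together (r = 0.19, −0.13 and 0.02), so the numbers were not taken as pairs. With the replicate number as a block 1244 genes passed, the same 3 members among them, and 2 of the other pathway genes (Gmnn and Mad2l1bp), while Anapc16 (adjusted p = 0.0686) and Ube2s (0.0542) did not.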
